A study of Mus musculus with 12 samples.

Results

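The data describe the unstimulated control cultures of mouse cardiac fibroblasts: 3 RNA sequencing libraries of the 12 in the series, taken because their labels name them as control wild-type cells infected with control adenovirus and given no treatment. The cells came from hearts of 12-week-old C57BL/6 mice (C57BL/6J in the methods), which per the study's methods carried a loxP-flanked Smad7 allele (Smad7 fl/fl). They were selected by adhesion to plastic and not by a sort, used at passage 2, and infected for 48 hours at a multiplicity of infection (MOI) of 100. The labels name a GFP adenovirus as the control virus and the methods an empty one. No Cre was given. The remaining 9 libraries, which received TGFβ1, Cre or both, were not used here. The labels do not say whether the 3 libraries came from separate mice or cultures, so the spread given below, a standard deviation (SD) over 3 libraries, may be technical.

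Cardiac fibroblasts are the interstitial cells that make and turn over the collagenous matrix of the heart. Most descend from the embryonic epicardium, keep transcription factors of that lineage such as Tcf21, and carry the PDGF receptor α encoded by Pdgfra. On stiff plastic they take on features of the myofibroblast, the contractile and matrix-secreting state seen in healing infarcts. The heart also holds resident macrophages, endothelial cells lining its vessels, and mesothelial cells on its surface, and the first of these also adhere to plastic.

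Levels are given as FPKM, the deposited number of fragments per kilobase of gene length, scaled to library size, so that genes of different length can be set side by side. Unless said otherwise, 3 values after a gene are the FPKM of libraries 1, 2 and 3, and a mean is over the 3 libraries (± SD, n = 3). A gene was taken as expressed at an FPKM of 1 or more in each library, and as at the counting floor at 3 counts or fewer in each library. Counts assigned to genes totalled 21844407, 19056916 and 22754402. Of 35275 genes measured, 11174 were expressed (31.7%), and 10746 of these were protein-coding, or 48.8% of all protein-coding genes. At the floor were 17274 genes, of which 13571 had no count in any library. Floors and zeros cover counting error only.

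The 3 libraries stood apart from each other by gene length. Among 819 expressed genes shorter than 1000 bases, the median difference of library 2 from the gene's mean log2 FPKM was 0.62, and that of library 3 was -0.58. Among 3557 genes of 4000 bases or more the order turned, with a median of -0.43 in library 2 and 0.40 in library 3, while library 1 stayed between -0.02 and 0.05 in all 4 length classes. Short genes therefore read high in library 2 and long genes high in library 3. Over 11174 genes Pearson's r of log2 FPKM, given as a description, was 0.976 between libraries 1 and 3 and 0.908 between libraries 2 and 3. The cause of the length trend, and its part in the orders of the 3 libraries given below, was not tested.

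**Figure D1:**
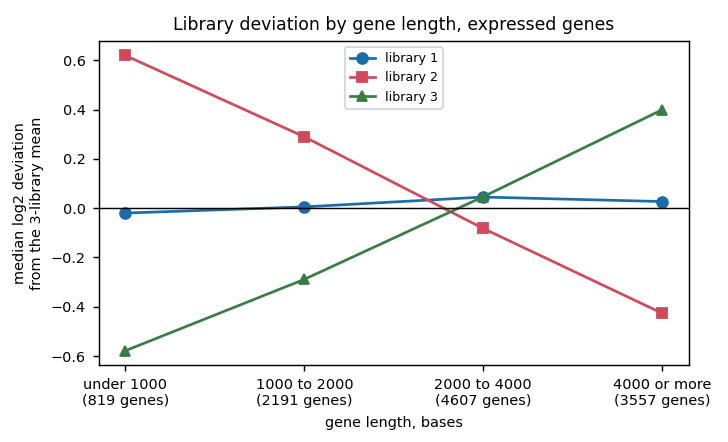
Median difference of each library from the gene's mean log2 FPKM over the 3 libraries (vertical axis, log2) in 4 classes of gene length in bases (horizontal axis), over expressed genes. Library 2 falls from 0.62 to -0.43 with length, library 3 rises from -0.58 to 0.40, and library 1 stays near 0.

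The 30 most abundant genes of at least 200 bases held 21.6%, 23.5% and 18.8% of the summed FPKM (21.3 ± 2.37%), and 292 genes held 50% of it. By mean, both ferritin subunits, which store iron, led the list. Ferritin light chain Ftl1 stood at 9689, 13710 and 6652 and heavy chain Fth1 at 8529, 15436 and 6078. Next came Lyz2, the lysozyme of macrophages and other myeloid cells, at 10129, 11403 and 7368, and Apoe, the lipid carrier apolipoprotein E, at 7932, 9922 and 5143. Lyz2 exceeded both ferritin genes in libraries 1 and 3 and neither in library 2. Ctsd, the lysosomal protease cathepsin D, stood at 4148, 4847 and 3383. Genes of the general cell machinery filled much of the rest: the actin-binding peptide Tmsb4x at 4307, 7522 and 2923, the elongation factor Eef1a1 at 4858, 5463 and 4284, the ribosomal proteins Rplp1, Rps12 and Rps26, cytoplasmic actin Actb, the calcium-binding proteins S100a6 and S100a4, galectin Lgals1, Tpt1, Itm2b, the cysteine protease inhibitor Cst3, and B2m, the invariant chain of MHC class I, with means between 1527 and 4917.

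Matrix genes entered the 30 with Sparc, a collagen-binding glycoprotein secreted by fibroblasts, at 2996, 1946 and 2909, and with Bgn, the small proteoglycan biglycan, at 1550, 1040 and 1810. Of the fibroblast list Vim, the intermediate filament of mesenchymal cells, and S100a4 were among them, and macrophages express both as well. Vim stood at 1567, 1926 and 1348. Of the macrophage list there were 4: Lyz2 and the 3 chains of complement C1q. C1qa stood at 1863, 2570 and 1233, C1qb at 1869, 2025 and 1249 and C1qc at 1579, 1824 and 989, and the C1qa to C1qc ratio within a library was 1.18, 1.41 and 1.25. Wfdc17, a small secreted protein known from activated macrophages, closed the 30 at 1286, 2042 and 883. Library 2 was highest for 25 of the 30 and library 3 lowest for 25, and 21 were among the 30 most abundant of each library taken alone.

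Among the 30 were 4 mitochondrial genes, of which mt-Co1, a subunit of cytochrome oxidase, was highest at 6572, 3612 and 7352, ahead of mt-Cytb, mt-Nd1 and mt-Nd6. Genes of the mitochondrial genome took 2.17%, 1.45% and 2.30% of counts. The mt-Nd6 value (1741, 3039 and 1180) is uncertain, since mt-Nd6 overlaps mt-Nd5 on the opposite strand and the sources used here do not say whether counting used strand. Ferritin, Eef1a1, Rplp1 and other ribosomal protein genes have many near-identical pseudogenes, so their counts depend on how shared reads were assigned. The ninth entry, Yam1, a lincRNA of the deposited annotation at chr17:39846958-39848788, plus strand (mm10), stood at 4213, 4343 and 1349. It overlaps by 1245 bases a RefSeq pseudogene of 18S ribosomal RNA, Rn18s-rs5, and by 677 bases a RefSeq lncRNA, AY036118. Whether the Yam1 reads are ribosomal was not tested.

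**Figure D2:**
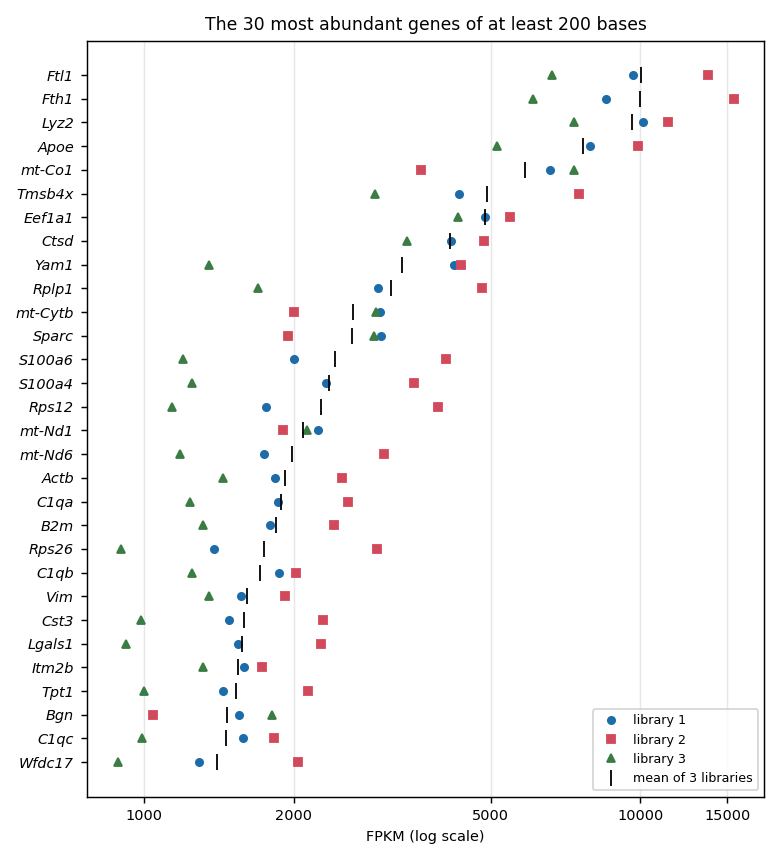
FPKM (horizontal axis, log scale) of the 30 most abundant genes of at least 200 bases in each of the 3 control libraries, with the mean as a black bar. Lyz2, Apoe and the C1q chains stand among ferritin, cytoskeletal and translation genes, and library 2 is highest for 25 of the 30.

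The labelled cell type was checked against a list of 15 fibroblast markers, of which 13 were expressed (86.7%, beside 48.8% of all protein-coding genes). Beside Vim and S100a4, the highest were Col3a1 at 1005, 641 and 1130 and Fn1, fibronectin, at 595, 242 and 1106. Col1a1, the α1 chain of type I collagen (chr11:94936224-94953042, plus strand, mm10), stood at 328, 159 and 388, with a mean of 292 ± 119. Dcn, decorin, was the steadiest at 290.1, 299 and 294, and Thy1, a surface antigen of mesenchymal cells, stood at 66, 63.2 and 58. Tcf21 (chr10:22817279-22820128, minus strand) stood at 107, 134 and 91.6 (mean 111 ± 21.2), whereas the receptor gene Pdgfra (chr5:75152291-75198204, plus strand) stood lower at 10.4, 7.92 and 14.2 (mean 10.9 ± 3.18). Pdgfrb, the receptor shared with mural cells, exceeded Pdgfra in each library, with a ratio of 2.48, 2.24 and 2.61. The list had 2 members below the threshold: Lum, lumican, at 0.485, 0.354 and 0.424, and Fap, a surface protease of activated fibroblasts, at 0.687, 0.641 and 0.552. Dcn exceeded Lum, a proteoglycan of the same family, by 598, 846 and 694 times.

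The same cultures carried a macrophage transcript set beside the fibroblast one. Of 34 macrophage markers 28 were expressed (82.4%, beside 48.8% of all protein-coding genes). Their summed FPKM was 20550, 23230 and 15102, or 4.16 ± 0.318% of all FPKM, against 6709, 7238 and 6199 (1.44 ± 0.125%) for the fibroblast markers. The macrophage sum, over more genes, was 3.06, 3.21 and 2.44 times the fibroblast sum. Vim and S100a4, which macrophages share, made up 58.1%, 74.9% and 41.8% of the fibroblast sum, and without them the ratio was 7.30, 12.8 and 4.19. Lyz2 alone made up 49.3%, 49.1% and 48.8% of the macrophage sum, and the 3 C1q chains another 25.8%, 27.6% and 23.0%. Without Lyz2 the macrophage sum was 10421, 11827 and 7735, closer to the full fibroblast sum but above it in each library. The median member stood at 111 in the fibroblast list and at 100.2 in the macrophage list, beside 1.28 over all protein-coding genes. Weighted by counts and not by length the order was closer: the macrophage list held 27642, 29412 and 22049 CPM (counts scaled to library total only) and the fibroblast list 20485, 15000 and 25601, so that library 3 had the fibroblast list ahead. Lyz2 is 1266 bases long in the deposited table and C1qa 1040, against 5564 for Col3a1 and 8315 for Fn1, so that this order depends on the scale. With bulk RNA, the number of cells of a type and the RNA that each cell holds cannot be told apart.

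The macrophage members covered lineage regulators, surface receptors and effector genes. Spi1, which encodes the myeloid transcription factor PU.1, stood at 113, 138 and 83.8, and its ratio to Tcf21 was 1.06, 1.04 and 0.915. Spi1 and Tcf21 were thus at nearly the same level in each library, which holds for these genes and not for their lineages. Csf1r, the receptor for the macrophage growth factor CSF1, stood at 216, 138 and 234 and exceeded Pdgfra by 20.7, 17.4 and 16.4 times. Adgre1, which encodes the F4/80 antigen, stood at 260.3, 151 and 267, and Tyrobp and Fcer1g, the signalling adaptors of myeloid receptors, at 903, 1111 and 552 and at 687, 918 and 486. The lysosomal genes Ctss and Cd68, the Fc receptor Fcgr3 and the pan-leukocyte Ptprc stood at means of 585 ± 197, 466 ± 113, 277 ± 30.6 and 41.7 ± 11.5. Mrc1, the mannose receptor, stood at 145, 113 and 197, Folr2 at 37, 36.1 and 24.6 and Cx3cr1, the fractalkine receptor, at 23.4, 16.2 and 28.4.

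A further 8 members were low or absent, none above an FPKM of 3 in any library. Timd4, a marker of self-renewing resident macrophages, had no count in any library, which allows an FPKM of up to 0.0724 (3 counts). Ccr2, the receptor of blood monocytes, stood at 0.0512, 0.00979 and 0.041, and F13a1 at 0.177, 0.284 and 0.385. The MHC class II genes H2-Aa (0.364, 0.232 and 0.582) and H2-Ab1 (0.756, 1.6 and 0.363) were below or about 1, and their invariant chain Cd74 stood at 2.63, 2.2 and 1.22. Cd163 stood at 1.12, 0.642 and 2.32 and Marco, a scavenger receptor, at 1.52, 2.1 and 1.14. The set was therefore high in Lyz2, C1q, Csf1r and Mrc1 and low in Ccr2, class II, Timd4, F13a1, Cd163 and Marco. No macrophage subset was assigned.

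**Figure D3:**
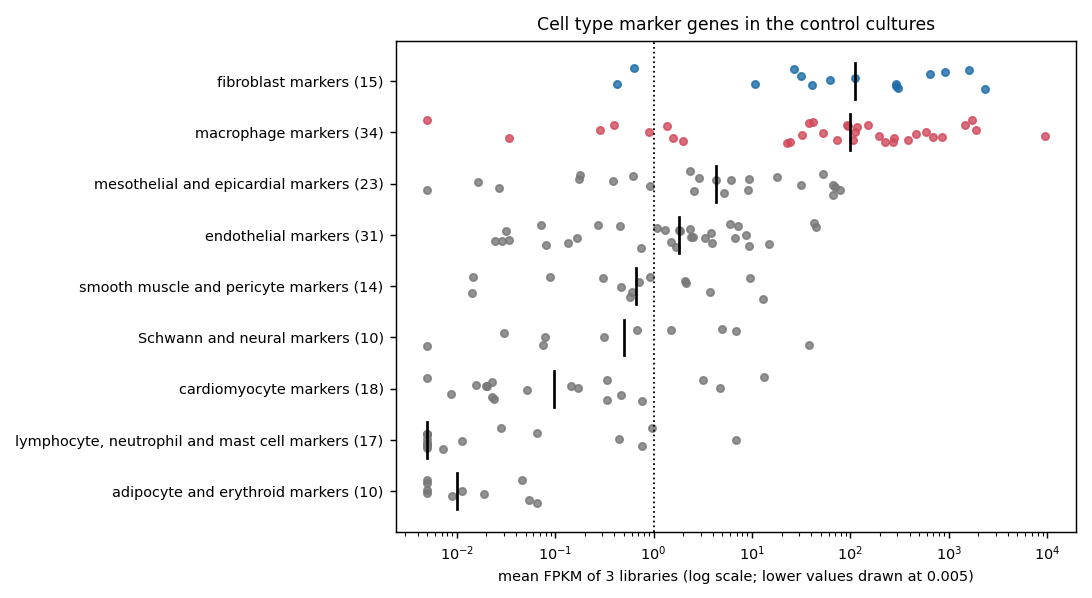
Mean FPKM over the 3 control libraries (horizontal axis, log scale) of each marker gene, 1 point a gene, in 9 cell type lists, with the number of listed genes in parentheses, the list median as a black bar and the threshold of 1 as a dotted line. The fibroblast and macrophage lists lie highest, the mesothelial and endothelial lists spread across the threshold, and the other lists lie mostly below it.

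To show the regulatory sequence beside 2 macrophage and 2 fibroblast transcripts of high level, the 250 bases before the RefSeq start (GRCm38.p6) are given, 5′ to 3′ on the gene's strand: Lyz2 at chr10:117282273-117282522, C1qb at chr4:136886201-136886450, Tcf21 at chr10:22820144-22820393 and Sparc at chr11:55420081-55420330, all on the minus strand. Capitals mark the motif CAGGAAGT on either strand (ACTTCCTG on the other), which holds the GGAA core bound by ETS factors, the family of PU.1. The motif was chosen after the Lyz2 and C1qb sequences had been read.
Lyz2: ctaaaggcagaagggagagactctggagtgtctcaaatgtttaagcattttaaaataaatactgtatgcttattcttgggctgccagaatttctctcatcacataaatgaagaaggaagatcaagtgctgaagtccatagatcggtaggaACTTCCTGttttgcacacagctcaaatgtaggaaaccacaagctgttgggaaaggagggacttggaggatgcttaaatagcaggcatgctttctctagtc
C1qb: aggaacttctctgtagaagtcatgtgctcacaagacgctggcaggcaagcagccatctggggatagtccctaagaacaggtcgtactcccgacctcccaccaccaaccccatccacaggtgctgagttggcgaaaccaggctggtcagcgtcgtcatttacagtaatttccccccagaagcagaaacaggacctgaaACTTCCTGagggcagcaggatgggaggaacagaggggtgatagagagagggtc
Tcf21: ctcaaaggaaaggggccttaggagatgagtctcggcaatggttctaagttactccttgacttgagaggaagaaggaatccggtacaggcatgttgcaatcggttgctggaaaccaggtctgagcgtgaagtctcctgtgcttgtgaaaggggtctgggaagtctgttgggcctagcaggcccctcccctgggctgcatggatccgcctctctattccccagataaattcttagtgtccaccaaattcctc
Sparc: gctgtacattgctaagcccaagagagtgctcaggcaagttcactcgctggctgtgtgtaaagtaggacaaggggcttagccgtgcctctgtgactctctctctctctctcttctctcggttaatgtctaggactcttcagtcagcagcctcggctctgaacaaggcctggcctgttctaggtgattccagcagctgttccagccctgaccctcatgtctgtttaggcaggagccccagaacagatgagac
The whole motif was present in the Lyz2 and C1qb windows and not in the Tcf21 and Sparc windows. Its GGAA core alone also occurred in the Tcf21 window and, on the other strand, in the Sparc window, so the core did not separate them. Over the same window it was in 733 of 27018 promoters (2.71%), 1 a gene, and in 4 of the 24 macrophage markers with a promoter in the table, or 2 of 22 without Lyz2 and C1qb, from which it was chosen. It was in 0 of 8 fibroblast, 0 of 15 endothelial and 2 of 15 mesothelial and epicardial markers. A match is a description of the letters and not of binding.

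Endothelial transcripts were present at a lower level than fibroblast or macrophage ones. Of 31 markers 17 were expressed (54.8%, beside 48.8% of all protein-coding genes), and their summed FPKM was 172, 192 and 145 (0.0362 ± 0.00112% of all FPKM). Emcn, the surface sialomucin endomucin (chr3:137341067-137432185, plus strand), stood at 44, 49.5 and 33.6 (mean 42.4 ± 8.07), and Fabp4, a fatty acid carrier that endothelial cells, adipocytes and macrophages all make, at 43.3, 64.6 and 27.1. Pecam1, which macrophages also express, stood at 15.6, 12.7 and 15.9, and Cdh5, VE-cadherin, at 9.56, 5.32 and 11.1. The angiopoietin receptor genes Tie1 and Tek stood at means of 3.82 ± 0.355 and 2.4 ± 0.768. Other defining genes were near 0. The main VEGF receptor Kdr stood at 0.294, 0.115 and 0.408, the tight junction gene Cldn5 at 0.0648, 0.148 and 0, nitric oxide synthase Nos3 at 0.0443, 0.152 and 0.0425 and the arterial factor Sox17 at 0.0293, 0.0168 and 0.0281. Emcn exceeded Kdr by 150, 430 and 82.4 times, on counts of 38, 13 and 55 for Kdr.

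Mesothelial and epicardial genes had a higher sum than the endothelial ones in each library. Of 23 markers 15 were expressed (65.2%, beside 48.8% of all protein-coding genes), with a sum of 444, 402 and 440 (0.0933 ± 0.0191% of FPKM). The highest by mean was Ezr, the actin linker ezrin, which many cells make, at 89.9, 54 and 92.5, though in library 2 it was below Nkain4, Gpm6a and Upk3b. Genes more particular to mesothelium followed: the uroplakins Upk3b at 75.9, 58.2 and 67.5 and Upk1b at 57.2, 51.5 and 50.5, Nkain4 at 70.4, 93.8 and 43 and Gpm6a at 60.2, 65.5 and 74.3. The retinoic acid synthesis gene Aldh1a2 stood at 19, 16.7 and 17.9 and Bnc1, basonuclin, at 8.92, 6.48 and 12.1. Msln, which encodes mesothelin, was low at 4.03, 4.19 and 4.74, and Upk3b exceeded it by 18.9, 13.9 and 14.2 times. Keratin Krt18 stood at 2.78, 3.07 and 1.95, whereas its partner Krt8 stood at 0.0254, 0 and 0.0243 and Krt7 at 0.0224, 0.0256 and 0.0322. Muc16 had no count, which allows an FPKM of up to 0.152. The epicardial factor Wt1 stood at 0.459, 0.611 and 0.796, below the threshold in each library.

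In the cardiomyocyte, smooth muscle, Schwann cell, lymphocyte and adipocyte lists a smaller share was expressed than the 48.8% of all protein-coding genes. Of 18 cardiomyocyte markers 3 were expressed (16.7%), led by the troponins Tnnt2 (11.4, 19.3 and 9.45) and Tnni3 (3.92, 6.62 and 3.81). The sarcomere genes Myh6 and Ttn were at 0, 0.0259 and 0 and at 0.0244, 0.0206 and 0.0239, and Nppa had no count. Of 14 smooth muscle and pericyte markers 5 were expressed (35.7%), with a highest mean of 12.9. Notch3 stood at 3.98, 1.28 and 6.06, whereas Myh11, smooth muscle myosin, stood at 0.621, 0.332 and 0.755. Of 10 Schwann cell and neural markers 4 were expressed (40%), led by Tubb3 (36.9, 43.1 and 33.5). The median of that list was 0.497, and Sox10 had no count. Of 17 lymphocyte, neutrophil and mast cell markers (5.88% expressed) only Csf3r, a receptor that macrophages share, passed the threshold (7.81, 4.52 and 8.53), and Cd3e had no count. None of 10 adipocyte and erythroid markers passed it.

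Of 18 myofibroblast and contractile genes 16 were expressed without stimulation (88.9%, beside 48.8% of all protein-coding genes). Acta2, smooth muscle α-actin, stood at 337, 392 and 287, its binding protein Tagln at 409.6, 592 and 294 and the myosin light chain Myl6 at 1138, 1968 and 698. Acta2 exceeded Myh11 by 543, 1180 and 380 times. Postn, periostin, stood at 28.2, 19.5 and 34.5 and Cthrc1 at 71, 72 and 69.2, whereas Cnn1, calponin of differentiated smooth muscle, stood at 3.79, 4.32 and 2.32 and Lrrc15, a marker of some activated fibroblasts, at 0.0172, 0.0692 and 0.0497. Of 19 genes known from fibroblasts of the intact heart 16 were expressed (84.2%). Mgp, matrix Gla protein, stood at 232, 439.5 and 140.1 and Gsn, gelsolin, at 262, 264 and 234. Pi16, Scara5 and Inmt stayed below 1, Pi16 at 0.343, 0.286 and 0.465, and Smoc2 stood at 1.86, 2.5 and 2.16.

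Matrix genes were described by class. Of 221 listed genes 139 were expressed (62.9%, beside 48.8% of all protein-coding genes), and their summed FPKM of 20475, 17357 and 21774 (19868 ± 2270) made up 4.42%, 3.15% and 5.49% of all FPKM. The matrix sum was 0.996, 0.747 and 1.44 times the macrophage sum in FPKM, and 2.49, 1.70 and 3.71 times it in CPM. Of 44 collagen chain genes 21 were expressed. The share was 63.6% of fibrillar, 58.3% of basement membrane and network, and 33.3% of the remaining chains, beside 48.8% of all protein-coding genes. Type III collagen was highest: Col3a1 stood at 1005, 641 and 1130 and exceeded Col1a1 by 3.06, 4.04 and 2.91 times. The chains of type I collagen, which assemble as a heterotrimer, were close to each other, with Col1a2 at 317, 218 and 371 and a Col1a1 to Col1a2 ratio of 1.03, 0.729 and 1.05. In type V, which nucleates collagen fibrils, Col5a2 at 409.8, 265 and 499 exceeded Col5a1 at 58.2, 30.6 and 74.2 by 7.04, 8.65 and 6.73 times.

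In the network collagens, Col4a1 (176, 85.8 and 234) and Col4a2 (156, 66.2 and 203), the paired chains of the common basement membrane trimer, had a ratio of 1.13, 1.30 and 1.15, and Col8a1 stood at 149, 132 and 209. Type VI collagen, a microfibrillar collagen made of 3 different chains, was uneven. Col6a1 stood at 152, 80.6 and 168 and Col6a2 at 62.4, 33.7 and 70.2, a ratio of 2.44, 2.39 and 2.39, while Col6a3 stood at 1.34, 0.639 and 2.87, so that Col6a1 exceeded it by 114, 126 and 58.4 times. Col12a1 and Col16a1, collagens of the fibril surface, stood at 25.7, 12.6 and 48.5 and at 37.5, 31.1 and 38. Library 2 was lowest for all 21 expressed collagens and library 3 highest for 20, which is the order that genes of 4000 bases or more followed.

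Matricellular proteins, which tune cell and matrix contacts, followed Sparc: Igfbp7 at 1279, 1362 and 952, osteopontin Spp1, which macrophages also secrete, at 800.3, 1336 and 676, and Wisp2 at 913, 1119 and 738. Its relatives Ctgf and Cyr61, targets of TGF-β and of mechanical signals, stood at 317, 483 and 301 and at 339, 329 and 348. Thbs1, thrombospondin 1, stood at 272, 187 and 425 and Tnc, tenascin C, at 16.9, 12.1 and 26.8. Ibsp had no count (up to 0.0761). Among the elastic fibre genes, Fbln2 (556, 274 and 626), the crosslinking enzyme Lox (449, 350.3 and 596) and Efemp1 (243, 235 and 237) led, ahead of fibrillin Fbn1 (40, 16.5 and 66.6) and elastin Eln (13.9, 6.54 and 15.5).

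Small leucine-rich proteoglycans, which bind collagen fibrils, were led by Bgn. Bgn exceeded Dcn by 5.34, 3.47 and 6.16 times, Prelp stood at 384, 230.1 and 445 and Fmod, fibromodulin, at 98.3, 67.8 and 117. The large aggregating proteoglycan Vcan, versican, stood at 0.961, 0.591 and 1.52, and Kera had no count. Perlecan Hspg2, of the basement membrane, stood at 55.4, 19.9 and 109, and the laminin chains Lamb2, Lamb1 and Lamc1 had means of 48.8 ± 17.1, 39.8 ± 9.86 and 35.9 ± 21.4. The collagen chaperone Serpinh1 stood at 598, 405 and 552, and the prolyl hydroxylase subunits P4hb and P4ha1 at 359, 362 and 336 and at 149, 149.6 and 155.

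The metalloprotease list was led by mean by the inhibitors Timp2 and Timp1. Timp2 stood at 573, 496 and 624, Timp1 at 317, 505 and 218 and Timp3 at 163, 44.6 and 314, whereas Timp4 stood at 0.0647, 0 and 0.031. Among the proteases, stromelysin Mmp3 and the membrane-bound collagenase Mmp14 were highest by mean, at 179, 294 and 174 and at 128, 169 and 132, while the gelatinase Mmp2 stood lower, at 52.5, 39.4 and 57.8. Timp2 exceeded Mmp2 by 10.9, 12.6 and 10.8 times. Mmp12, the elastase of macrophages, stood at 26.7, 30.3 and 31.6 and Mmp9 at 0.173, 0.215 and 0.332, and Mmp1a had no count (up to 0.0779).

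**Figure D4:**
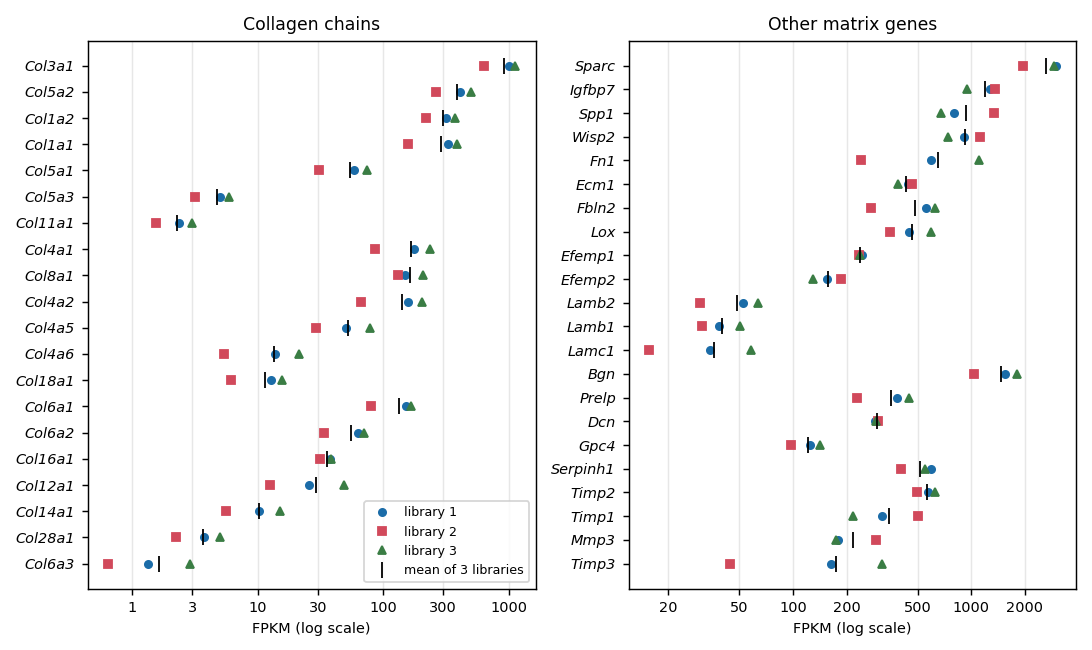
FPKM (horizontal axes, log scale) of leading collagen chains (left) and other matrix genes (right) in each of the 3 control libraries, with the mean as a black bar. Col3a1 is the highest collagen and Sparc the highest matrix gene, and library 2 is lowest for every collagen shown.

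Of 237 receptor genes 140 were expressed (59.1%, beside 48.8% of all protein-coding genes). Integrin β1, Itgb1, was the highest receptor gene at 316, 239 and 354, ahead of Itgb5 at 256, 201 and 239. Itgb1 pairs with many α chains to bind collagen, laminin and fibronectin. Leukocyte integrins were also present, with Itgb2 at 98.4, 60.1 and 101 and Itgam at 56, 30.3 and 73. The α chains were lower: Itgav stood at 25.4, 24.5 and 37.3, Itga5, of the fibronectin receptor, at 27.3, 19.6 and 28.8, and the collagen-binding Itga11 and Itga1 at 4.5, 1.24 and 7.77 and at 2.64, 1.69 and 4.7.

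Of 54 receptor tyrosine kinase genes 25 were expressed (46.3%, near the 48.8% of all protein-coding genes). Csf1r was the highest, ahead of Axl (78.2, 52.8 and 90), a receptor for the Gas6 ligand, and of the collagen receptors Ddr1 (81.3, 41.4 and 92.5) and Ddr2 (27, 20.5 and 47.3). Csf1r exceeded Axl by 2.76, 2.61 and 2.59 times. Fgfr1 stood at 29.8, 26.1 and 36.9 and Igf1r at 8.8, 5.86 and 18.7. Of the ErbB family, which the study followed by protein and phosphorylation, Erbb2 and Egfr passed the threshold and Erbb3 and Erbb4 did not. The median of the receptor tyrosine kinase list was 1.08. Erbb2 stood at 3.43, 2.54 and 4.36, Egfr at 3.06, 1.72 and 3.91, Erbb3 at 0.244, 0.0785 and 0.329 and Erbb4 at 0.0114, 0.00872 and 0.

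Both signalling TGF-β receptors were expressed. Tgfbr2, the type II receptor, stood at 97.8, 65 and 117 and exceeded the type I receptor Tgfbr1 (30.1, 19.4 and 44.4) by 3.25, 3.35 and 2.63 times. Endoglin, Eng, a coreceptor known from endothelium and also found on macrophages and mesenchymal cells, stood at 98, 80 and 97.2, and the second coreceptor Tgfbr3 at 2.45, 1.84 and 4.22. Acvrl1, the type I receptor for BMP9, stood at 46.4, 37.6 and 43.3. In all, 11 of 15 receptors of the superfamily were expressed (73.3%, beside 48.8% of all protein-coding genes).

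Among G protein-coupled receptors 27 of 58 were expressed (46.6%, near the 48.8% of all protein-coding genes). The leading ones were Adgre1, the nucleotide receptor P2ry6 (93.4, 61.3 and 77.8) and the thrombin receptor F2r (53.9, 57.4 and 71.8). Lpar1, for lysophosphatidic acid, stood at 16.5, 15.8 and 17.6. Angiotensin and endothelin receptors, through which these hormones act on fibroblasts, were near or below the threshold. Agtr1a stood at 0.0625, 0.0239 and 0.0999, and Agtr2 had no count (up to 0.048). Ednra stood at 0.164, 0.217 and 0.0849 and Ednrb at 1.41, 1.13 and 2.02.

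Cytokine receptors were expressed in 34 of 44 cases (77.3%, beside 48.8% of all protein-coding genes). The highest were Ifngr1 (112, 94.1 and 106), the TNF receptor Tnfrsf1a (85.5, 89.7 and 83.2) and Crlf2 (64.7, 77.5 and 48.7). Il6st, the gp130 chain shared by the IL-6 family, stood at 55.8, 36.5 and 81, and the IL-1 receptors Il1r1 and Il1rl1 at 5.07, 3.13 and 6.57 and at 0.155, 0.208 and 0.232. In the remaining class 27 of 40 were expressed (67.5%), with the scavenger receptor Lrp1 (78.5, 45.3 and 149), the collagen endocytosis receptor Mrc2 (64.2, 39.4 and 79.2) and the neuropilin Nrp1 (40.1, 43.6 and 50.9) ahead. Tlr2 stood at 41.4, 36.2 and 39.2, Npr2, the receptor for C-type natriuretic peptide, at 32.5, 27.8 and 35.3 and Notch2 at 9.56, 5.62 and 16.5.

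Of 69 ligand genes 49 were expressed (71.0%, beside 48.8% of all protein-coding genes). Gas6, the ligand of Axl and Mertk, led at 421, 373 and 379. Csf1, the growth factor for macrophages, stood at 322, 228 and 360.2, which was 1.49, 1.65 and 1.54 times the level of its receptor gene Csf1r. Both sides of this pair were thus transcribed in the cultures. Their ratio varied little between libraries, as did that of Csf1r to Axl (2.76, 2.61 and 2.59). Mif stood at 268, 478 and 159 and Fstl1 at 274, 186 and 323. Tgfb1 (105, 97.6 and 88.3) exceeded Tgfb2 (20.5, 16.2 and 23.2) and Tgfb3 (25.3, 18.5 and 29.8) in each library. The monocyte chemokines Ccl2 and Ccl7 stood at 65.3, 121 and 53.8 and at 85.8, 189 and 66.2, Igf1 at 57.1, 52.4 and 66.7, Igf2 at 0.397, 0.367 and 0.512, and Il6 at 17.5, 23.4 and 14.1. Bmp7 had no count.

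**Figure D5:**
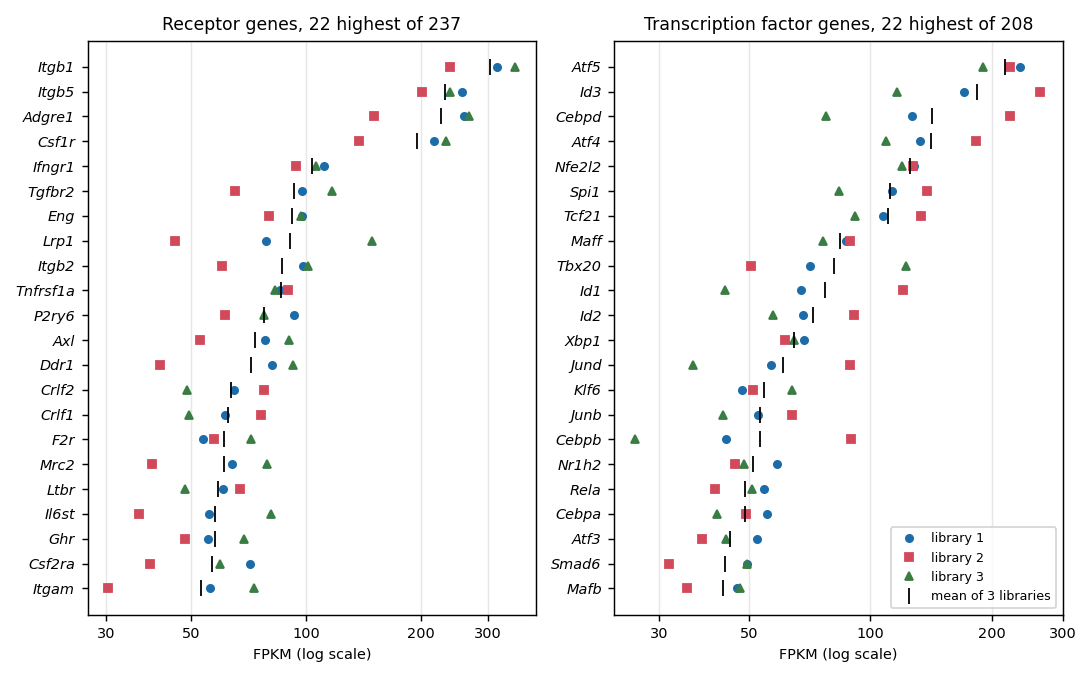
FPKM (horizontal axes, log scale) of the 22 highest receptor genes (left) and the 22 highest transcription factor genes (right) in each of the 3 control libraries, with the mean as a black bar. By mean, Adgre1 and Csf1r follow the integrins Itgb1 and Itgb5 among receptors, though Adgre1 exceeds Itgb5 in libraries 1 and 3. Spi1 and Tcf21 lie next to each other among factors.

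Of 208 transcription factor genes 135 were expressed (64.9%, beside 48.8% of all protein-coding genes). Factors of stress and growth responses were highest: Atf5 at 236, 222 and 190.0, the BMP target Id3 at 171, 263 and 116, Cebpd at 127, 223 and 77.7 and Atf4, of the integrated stress response, at 133, 183 and 109. Immediate early genes were lower, with Fos at 4.8, 4.95 and 5 and Egr1 at 11.1, 10 and 10.6. Of the lineage factors of heart and proepicardium 19 of 27 were expressed (70.4%). By level the order was Tcf21, Tbx20 (70.8, 50.7 and 122), then Tbx18 (29.4, 27.4 and 38.3) and Gata4 (35.6, 19.4 and 38.9), whose ranges over the libraries overlapped. The Tcf21 to Tbx20 ratio was 1.52, 2.64 and 0.748, so that the order of these genes turned in library 3. Gata6 stood at 18.5, 14.7 and 19.4 and Hand2 at 12.6, 15.5 and 9.56. Gata5 had no count (up to 0.048), and Isl1 stood at 0.0546, 0 and 0.0349.

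Mesenchymal factors were expressed in 30 of 42 cases (71.4%, beside 48.8% of all protein-coding genes). They were led by Wwtr1 (30.4, 27.7 and 40.3), which encodes the YAP relative TAZ, and by Zeb2 (23, 15.4 and 37.1). Tead1, a DNA-binding partner of YAP and TAZ, stood at 20.6, 14.7 and 33.3. Twist1 stood at 12.6, 12.7 and 9.63 and Scx, scleraxis, at 13.7, 18.7 and 8.59. In the Smad family the inhibitor Smad6 stood at 49.5, 31.7 and 49.6. Smad7, whose allele is flanked by loxP sites in these cells, stood at 17, 16 and 18.8 (mean 17.3 ± 1.42). Smad2 and Smad3, which carry the TGF-β signal, stood at 13.6, 13.4 and 16.7 and at 10.8, 6.56 and 13.5, and Smad4 at 19.5, 17.8 and 23.6. The interferon regulatory factors Irf5 and Irf8, known from myeloid cells, stood at 42.7, 31.7 and 37.6 and at 34.9, 27.4 and 33.3. Klf6 (48.1, 51.2 and 64.1), Nr1h2 (58.8, 46.3 and 48.7) and Klf4 (33.4, 20.7 and 34.3) led the Krüppel-like and nuclear receptor list. Only 4 of 39 Hox genes were expressed (10.3%), the highest being Hoxb4 at 2.96, 2.02 and 3.12, and 8 Hox genes had no count.

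The spread between the 3 libraries was examined gene by gene. Among 5786 genes with a mean FPKM of 10 or more and 10 counts in each library, the median ratio of the highest to the lowest library was 1.504, and 1357 genes had a ratio of 2 or more. With each library's length trend removed, the median ratio was 1.26 and 348 genes had a ratio of 2 or more. Of genes highest in library 3 and lowest in library 2, the 5 with the largest ratio included Vcl, the focal adhesion protein vinculin, at 22.2, 2.67 and 45.3, the endocytic adaptor Ston1 at 21.3, 2.43 and 39.7, and Piezo1, a mechanically gated channel, at 20, 2.42 and 38.4. Arid5b and the pseudogene Gm13295 were the others. With the trend removed, the ratio of Vcl went from 17.0 to 9.95, that of Ston1 from 16.4 to 13.6 and that of Piezo1 from 15.9 to 7.15, whereas that of the short Gm13295 went from 12.8 to 41.9. Of genes highest in library 2 and lowest in library 3, the 5 with the largest ratio were all under 1000 bases long: the ribosomal gene Rpl35 at 50.2, 108 and 16, the histone Hist1h4h at 31.9, 76.5 and 12.1, and the pseudogenes Gm10180, Rpl38-ps2 and Rps27a-ps2.

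Library 1 lay between the others for 4374 of the 5786 genes. Among the genes it led, Lars2, a mitochondrial leucyl-tRNA synthetase, stood at 499.6, 293 and 119, a ratio of 4.20, and Gm26917 at 144, 112 and 43.2. Gm26917 is listed on chromosome 17 beside Yam1, which also had its lowest value in library 3. Med25, Chtf8 and Stap1 followed, with ratios of 2.27 to 2.31. The genes lowest in library 1 were Gm6563, Clec3b, Timm10, Dynlt1f and Uchl3, with ratios of 2.00 to 2.29.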

How the data were processed

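Poly(A)-enriched RNA was sequenced in 100-base pairs. Per the submitters' processing notes, reads were handled with CASAVA, TopHat2 2.0, HTSeq 0.6.1 and Cufflinks 2.1.1 against mm10. The authors deposited a table of counts per gene and one of FPKM, which equalled count / (gene length × library total) within 4.02e-08. Whether counting used strand is not given in the sources used here. Both tables were used for the 3 control libraries, and 0 columns lacked a sample. No test was run, since 1 condition is described, and p-values are absent. Levels were averaged over libraries. TMM factors (edgeR 4.0.16), DESeq2 1.42.0 size factors and TPM served as alternatives, and so did removal of each library's trend on length (lowess, span 0.3), chosen after seeing the data. The calculations were tested on simulated data.

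Genes named are the 30 of at least 200 bases with the highest mean FPKM and the markers Col1a1, Pdgfra, Tcf21, Lyz2 and Emcn. Members of most lists are also named, in the main their highest and defining members that were low or at the floor. The 5 most variable genes (mean FPKM of 10 or more, count of 10 or more) are named for each library in turn as highest or lowest. Members and lists were chosen with earlier results of these data known, and ratios between genes and the motif after their values or sequences were seen. Some genes stand in more than 1 list. Promoters came from RefSeq (GRCm38.p6).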

Additional observations from a re-analysis of the deposited data

How the results depend on the processing

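Of 91 values under an alternative, 80 stayed within 1 SD of the reported value, or within 1.5 times for a count of genes, and 11 did not. Counts of expressed genes, receptors and transcription factors ranged from 11174 to 13460, 140 to 183 and 135 to 166 over all alternatives. TPM, which sets each library to the same sum, rescaled the summed levels to 43568 for matrix genes, 41568 for macrophage, 362.3 for endothelial and 933.1 for mesothelial markers, and the means to 24.28 for Pdgfra and 235.3 for Tcf21. Without length in the scale, the sums were 66918 CPM for matrix genes, 26368 for macrophage, 464 for endothelial and 1208 for mesothelial markers, and the 30 most abundant genes held 12.26% of counts. These moves follow from the change of scale. Leaving out 1 library gave 18916 to 21124 for the matrix sum, 17826 to 21890 for the macrophage sum, 9.17 to 12.3 for Pdgfra and 99.5 to 120.5 for Tcf21. Removing the length trend, an alternative added after seeing the data, gave 19433 and 19234 for the matrix and macrophage sums. No paired analysis was possible because 1 group is described and no test was run. Depth limits genes at the floor: 3 counts correspond to 0.132 to 0.157 CPM.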

Other observations

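Genes of the cell cycle and their inhibitors were both expressed in the cultures. Of 22 proliferation genes 20 were expressed (90.9%, beside 48.8% of all protein-coding genes). They were led by Ccnd1, cyclin D1, at 134, 48.3 and 173 and Pcna, the replication clamp, at 60.5, 79.5 and 52.5. Hmgb2 came next at 10.6, 20.5 and 8.15, while Mki67, which marks cycling cells, stood at 1.68, 1.86 and 2.34. All 11 genes of the inhibitor and senescence list were expressed. Cdkn1a, which encodes p21 and responds to p53, stood at 279.5, 240.4 and 253, Cdkn2a, which encodes p16 and p19ARF, at 138, 244 and 87.2, and the p53 target Mdm2 at 55.2, 41.9 and 61.2. Cdkn1a exceeded Mki67 by 167, 129 and 108 times.

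Interferon-stimulated genes were expressed in 14 of 16 cases (87.5%, beside 48.8% of all protein-coding genes). The cultures were virus-infected, and no uninfected counterpart was analysed here. Bst2, tetherin, stood at 368, 633 and 231, Ifit3 at 113, 129 and 94 and Isg15 at 17.2, 36.4 and 9.13, while Rsad2 stood at 2.74, 2.64 and 2.48 and Oasl1 at 0.504, 0.313 and 0.282. Library 3 was lowest for all 5 of these genes.

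Transcripts of both sexes were present in each library. The Y-linked Eif2s3y and Ddx3y stood at 17.6, 23.6 and 18.8 and at 15.6, 16.2 and 24.2, and Xist, the X-inactivation RNA of female cells, at 4.77, 4.03 and 10.8. Uty stood at 3.04, 2.39 and 5.24, and the antisense gene Tsix had no count. Without a stated strand setting reads of Xist and Tsix cannot be told apart.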
